A study of Caenorhabditis elegans with 2 samples.

Results

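The mitochondrial ribosomal protein genes of Caenorhabditis elegans were examined for occupancy by SEM-4, a Spalt-type transcription factor with zinc fingers. Members were all protein-coding genes of the WBcel235 annotation whose symbol starts with mrpl- (large subunit) or mrps- (small subunit), irrespective of any measured value. They numbered 70 of 19973 protein-coding genes, with 41 in the large-subunit set and 29 in the small-subunit set.

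SEM-4 carrying an eGFP tag was immunoprecipitated from whole L2 larvae and the bound DNA was sequenced (ChIP-seq). The animals were of strain OP57, which is mutant for unc-119 (allele ed3 on chromosome III), and both sexes were pooled. The strain carries the transgene insertion wgIs57 for the tagged sem-4. The study holds 1 group with 2 biological replicates and no second condition, so no comparison between conditions and no test over samples could be made. Whole animals were used, so a signal cannot be assigned to a cell type, and it is that of the tagged transgene protein.

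Mitochondria hold their own ribosome, which translates the few proteins encoded by mitochondrial DNA, nearly all of them subunits of the respiratory chain and ATP synthase. Its RNAs come from mitochondrial DNA, whereas its proteins are encoded in the nucleus, made by cytosolic ribosomes and imported. In C. elegans, knockdown of mitochondrial ribosomal proteins such as MRPS-5 is known to activate the mitochondrial unfolded protein response and to extend lifespan. Many worm genes lie in operons, in which several genes on 1 strand are transcribed from a promoter upstream of the first.

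A summit is the position of highest signal within a peak, and a gene was counted when a summit lay between 1000 bp upstream and 200 bp downstream of any of its transcript starts. The relaxed list, called on the pooled reads of both replicates, held 30000 peaks, with a lowest signal of 7.62. It is labelled as peaks and background, made as input for the thresholding below, as is the relaxed list of each replicate. A relaxed summit outside the reproducible list may thus be background and does not by itself show occupancy. The reproducible list, thresholded by the authors on irreproducible discovery rate, held 2490 peaks, which were those of highest pooled signal, with a lowest signal of 40.32. Signal is the authors' own value for each peak, on a scale set by each list, so signals are compared only within a list and replicates by rank, where 1 is the strongest. The lists carry no read counts, so the depth behind a peak is unknown and no counting error can be given. How the worms behind each replicate were cultured is not in the labels, so agreement of the replicates may measure technical spread alone.

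The DNA under the strongest summits is shown first, as the summit base with 50 bp on each side, on the plus strand of ce11 (the UCSC name of WBcel235). The upper 4 lines are the summits of highest pooled signal at these genes on the chromosomes shown, chosen by signal. The lower 4 are other member summits that hold an 8-letter word discussed with the motifs, chosen after their sequences were seen. Capitals mark the site TTGTCT or TTGTGT, the motif GAGAGA, and those 8-letter words, on either strand. The windows are chrIV:4660448-4660548 for mrps-21, chrIV:7709857-7709957 for mrpl-1 and mrps-24, chrII:156078-156178 for mrpl-28, chrIII:6431869-6431969 for mrps-17, chrIV:443771-443871 for mrpl-55, chrIII:8449373-8449473 for mrpl-32, chrIII:1202301-1202401 for mrpl-45 and chrIII:9848220-9848320 for mrpl-36.
mrps-21: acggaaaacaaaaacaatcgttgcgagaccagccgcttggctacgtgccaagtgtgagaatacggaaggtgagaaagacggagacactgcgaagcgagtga
mrpl-1 and mrps-24: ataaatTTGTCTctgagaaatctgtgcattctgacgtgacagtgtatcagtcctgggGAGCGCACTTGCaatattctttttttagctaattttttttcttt
mrpl-28: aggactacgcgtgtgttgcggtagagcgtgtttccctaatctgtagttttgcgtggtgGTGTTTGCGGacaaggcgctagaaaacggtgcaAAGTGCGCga
mrps-17: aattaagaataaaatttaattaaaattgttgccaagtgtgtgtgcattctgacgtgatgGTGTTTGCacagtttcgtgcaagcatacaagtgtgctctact
mrpl-55: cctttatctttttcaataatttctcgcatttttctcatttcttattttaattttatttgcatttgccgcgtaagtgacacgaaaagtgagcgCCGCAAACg
mrpl-32: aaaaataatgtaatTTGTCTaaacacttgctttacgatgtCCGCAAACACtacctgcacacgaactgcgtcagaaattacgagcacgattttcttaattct
mrpl-45: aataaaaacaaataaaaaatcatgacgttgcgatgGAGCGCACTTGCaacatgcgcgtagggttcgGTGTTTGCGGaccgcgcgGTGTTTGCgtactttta
mrpl-36: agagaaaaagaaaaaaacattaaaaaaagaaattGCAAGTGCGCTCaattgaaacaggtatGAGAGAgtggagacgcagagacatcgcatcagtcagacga

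Most mitochondrial ribosomal protein genes had a relaxed SEM-4 summit near a start, and a minority had a reproducible one. A relaxed pooled summit lay in the window of 51 of 70 members (72.9%), against 38.4% of all protein-coding genes. A reproducible summit lay in the window of 16 members (22.9%), against 8.71% of all genes. Both shares stood above the background, and neither was given a test, since genes are not replicates and neighbouring genes share summits.

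Each replicate alone gave similar counts. In replicate 1, 47 members (67.1%) had a relaxed summit, against 39.8% of all genes, and in replicate 2 also 47, against 40.2%. Among the 2490 strongest peaks of each replicate, replicate 1 gave 16 members (22.9%), against 8.39% of all genes, and replicate 2 gave 15 (21.4%), against 8.46%. A top peak of both replicates was found at 11 members (15.7%), against 5.94% of all genes.

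The subunits differed little in the relaxed list and somewhat more in the reproducible one. A relaxed summit lay near 30 of 41 large-subunit genes (73.2%) and 21 of 29 small-subunit genes (72.4%). A reproducible summit lay near 11 large-subunit genes (26.8%) and 5 small-subunit genes (17.2%). With counts this small the difference between the subunits was not tested, and the pooled signals of the reproducible summits overlapped between the subunits.

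The members are spread unevenly over the genome. Chromosome III holds 22 of the 70 members (31.4%), against 13.2% of all protein-coding genes, and chromosome X holds 0, against 13.7% of all genes. Reproducible summits were found at 5 of 11 members on chromosome IV, 4 of 22 on III, 3 of 12 on II, 3 of 15 on I and 1 of 10 on V. The share of all genes with such a summit was not computed for each chromosome, so these counts show no excess or lack on any of them.

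**Figure D1:**
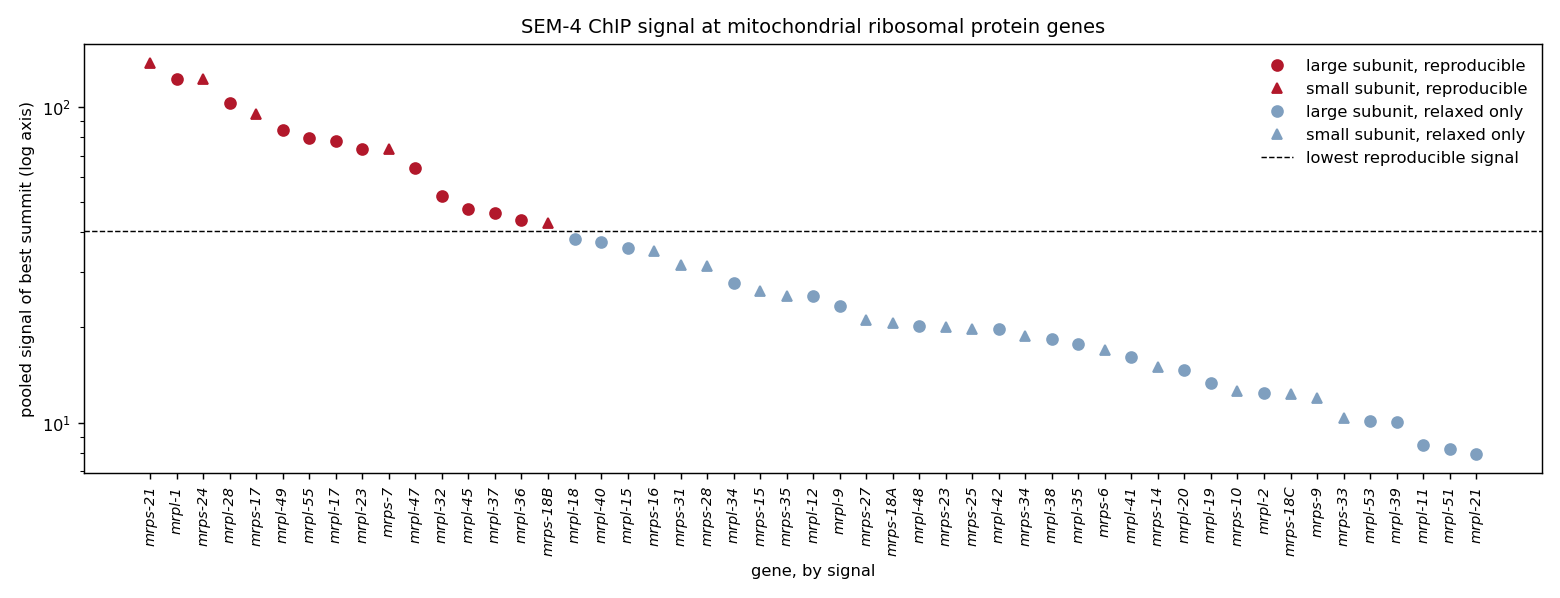
Pooled signal of the strongest summit in the window (log axis) for each of the 51 members with a relaxed summit, ordered by signal, with circles for large-subunit and triangles for small-subunit genes. The 16 members with a reproducible summit (red) run from 137 to 42.9, and the dashed line marks the lowest reproducible signal of 40.32.

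Among the large-subunit genes, mrpl-1 had the strongest summit, and it was shared with a small-subunit gene. The summit at chrIV:7709907 lay 206 bp upstream of mrpl-1 (named after ribosomal protein L1), 138 bp upstream of mrps-24 on the opposite strand and 171 bp upstream of emc-6, a subunit of the endoplasmic reticulum membrane protein complex. Its signal was 122.8 in the pooled list (rank 226), 88.2 in replicate 1 (rank 158) and 34.0 in replicate 2 (rank 645). Both replicates placed this summit among their strongest peaks, and the start of mrps-24 was the nearest, so the summit cannot be assigned to any 1 of the 3 genes.

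The next large-subunit summits included isolated ones. At mrpl-28 the summit lay 119 bp upstream of the start, alone, with signal 103 in the pooled list (rank 348), 59.0 in replicate 1 (rank 426) and 40.7 in replicate 2 (rank 416). At mrpl-55, whose mammalian counterpart is found in mitochondrial but not bacterial ribosomes, it lay 164 bp upstream and alone, with signal 79.3 in the pooled list (rank 631), 58.9 in replicate 1 (rank 429) and 24.3 in replicate 2 (rank 1389). The ranks of mrpl-28 nearly coincided in the replicates, whereas mrpl-55 stood higher in replicate 1.

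A summit 159 bp upstream of mrpl-49 had signal 84.5 in the pooled list (rank 550), 50.8 in replicate 1 (rank 594) and 26.5 in replicate 2 (rank 1158). It was shared with rpl-28, 360 bp away on the opposite strand, which encodes a protein of the cytosolic large subunit. The mitochondrial gene's start was the nearer.

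A summit 158 bp upstream of mrpl-17 had signal 78.0 in the pooled list (rank 662), 53.2 in replicate 1 (rank 531) and 22.9 in replicate 2 (rank 1561), and was shared with vbh-1, an RNA helicase gene 264 bp away. At mrpl-23, named after a protein of the polypeptide exit site, the only reproducible summit lay 940 bp upstream, with signal 73.4 in the pooled list (rank 727), 39.6 in replicate 1 (rank 1010) and 34.8 in replicate 2 (rank 608). The window of no other protein-coding gene held it. It lay far from the mrpl-23 start, within fars-1, the same-strand gene that ends 96 bp upstream of mrpl-23. There it fell in an exon of the non-coding genes T08B2.14 and WBGene00023344.

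The summit at mrpl-47 was the only reproducible one downstream of a member's start, by 1 bp and in the annotated 5′ UTR. Its signal was 64.0 in the pooled list (rank 988), 52.6 in replicate 1 (rank 552) and 10.5 in replicate 2 (rank 6064). Its high pooled place came from replicate 1, and in replicate 2 it stood outside the 2490 strongest peaks.

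The remaining large-subunit summits stood in the lower part of the reproducible list. At mrpl-32, whose counterpart in yeast and mouse matures by cleavage with an inner-membrane protease, the summit lay 334 bp upstream, alone, with signal 52.1 in the pooled list (rank 1526), 27.1 in replicate 1 (rank 2265) and 29.1 in replicate 2 (rank 926). At mrpl-45, whose mammalian counterpart tethers the ribosome to the inner membrane, it lay 343 bp upstream, with signal 47.5 in the pooled list (rank 1856), 24.0 in replicate 1 (rank 2906) and 22.8 in replicate 2 (rank 1574). The mrpl-45 summit was nearer to Y119D3B.12, 195 bp away on the opposite strand.

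At mrpl-37 the summit lay 691 bp upstream, with signal 46.1 in the pooled list (rank 1942), 19.7 in replicate 1 (rank 4172) and 20.5 in replicate 2 (rank 1930), and 166 bp from lin-38, a synthetic multivulva gene, whose start was the nearer. At mrpl-36 it lay 154 bp upstream, alone, with signal 43.6 in the pooled list (rank 2150), 31.3 in replicate 1 (rank 1700) and 14.6 in replicate 2 (rank 3628). Each of these summits was among the strongest 2490 of only 1 replicate.

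Among the small-subunit genes, mrps-21 had the strongest summit of all members, but it lay far from its start. The summit at chrIV:4660498 was 981 bp upstream of mrps-21, with signal 137 in the pooled list (rank 165), 88.2 in replicate 1 (rank 157) and 46.7 in replicate 2 (rank 282). It was nearer to F29B9.11, 297 bp away on the same strand, and to jmjd-1.2, 493 bp away on the opposite strand, a histone demethylase gene linked in worms to the mitochondrial stress response. F29B9.11 ends 114 bp upstream of mrps-21, so the summit lies at the first gene of a possible operon.

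At mrps-17 the summit at chrIII:6431919 lay 121 bp upstream, with signal 94.5 in the pooled list (rank 433), 59.4 in replicate 1 (rank 415) and 34.4 in replicate 2 (rank 625). It was shared with txdc-9, a thioredoxin-domain gene 259 bp away on the opposite strand, and with popl-1, 985 bp away. At mrps-7 it lay 197 bp upstream, with signal 73.4 in the pooled list (rank 728), 35.8 in replicate 1 (rank 1258) and 35.2 in replicate 2 (rank 593), and was shared with Y57G11C.3 on the opposite strand. The start of the mitochondrial gene was the nearest in both cases.

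The weakest reproducible summit lay 146 bp upstream of mrps-18B, with signal 42.9 in the pooled list (rank 2219), 28.9 in replicate 1 (rank 2014) and 12.6 in replicate 2 (rank 4543). Its nearest start was that of prp-9, a splicing factor gene 139 bp away on the opposite strand. Replicate 1 placed it in its strongest 2490 peaks and replicate 2 did not.

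Across these 16 members there were 15 distinct summits, of which 13 were intergenic, 1 was in a 5′ UTR and 1 in an exon of a non-coding gene. The places of all reproducible summits were not counted, so these counts show nothing particular to the members. The summit lay upstream of the start in 15 members, and 12 (75%) had it 100 to 350 bp upstream, against 49.3% of the 1739 genes with a reproducible summit. This range was not among the planned settings, and its bounds lie close to the members' own values of 119 to 343 bp within it. The difference is therefore no support for a preferred distance, and the summit shared by mrpl-1 and mrps-24 counts for both. The median distance upstream was 161.5 bp for the members and 248 bp for all such genes. The median pooled signal was 75.7 for the members and 61.7 for all such genes, and the members' median pooled rank was 694.5 in the list of 2490, whose highest signal was 1964.

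For 6 of the 16 members no other gene's window held the summit, though that of mrpl-23 lay within fars-1. Other genes shared the summit in the remaining 10. This was 62.5% of them, against 48% of all genes with a reproducible summit, taking the strongest summit of each. The member's own start was the nearest in 11 of the 16. With each summit given to its nearest start only, the share of all genes was 6.51%, against 8.71%. A summit in a shared window does not say which gene, if any, it acts on.

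The reproducible summits of all 16 members overlapped a peak of both replicates. The list was itself thresholded on irreproducible discovery rate, so this overlap is no separate evidence, and its share over all reproducible peaks was not computed. Of the 16, 14 stood within the strongest 2490 peaks of replicate 1, 13 within those of replicate 2, and 11 within both. Replicate 1 ranked 10 of the 16 higher, and the median rank was 573 in replicate 1 and 1042 in replicate 2. Over the 40 distinct member summits that matched a peak of both replicates, Spearman's rho between the ranks was 0.777, a description over summits that share the same pair of libraries.

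**Figure D2:**
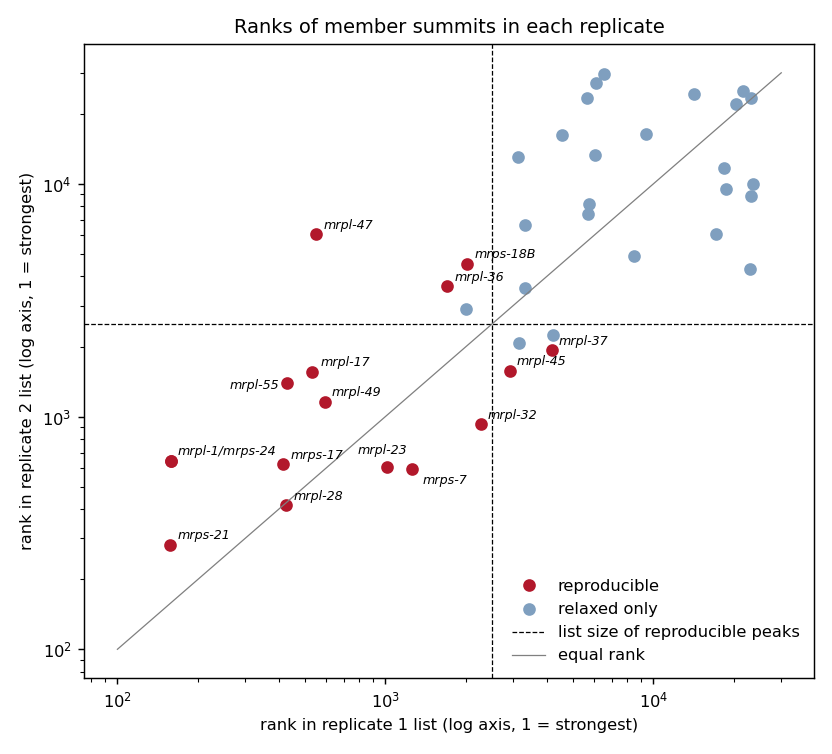
Rank of each member's strongest summit in the replicate 1 list (horizontal) and the replicate 2 list (vertical), both on log axes with 1 the strongest, for the 40 distinct summits matched in both. The summit of mrpl-47 stands apart at rank 552 in replicate 1 and 6064 in replicate 2, and 11 of the 16 members with a reproducible summit lie within the strongest 2490 of both lists (dashed lines).

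A further 35 members had a relaxed summit only, with pooled signals of 7.97 to 38.1 and a median of 18.8. The strongest was at mrpl-18, with signal 38.1 in the pooled list (rank 2770), 29.0 in replicate 1 (rank 2003) and 16.5 in replicate 2 (rank 2887), 243 bp upstream and shared with C14B9.8. Next came mrpl-40 with 37.3 in the pooled list (rank 2904), 22.4 in replicate 1 (rank 3308) and 14.8 in replicate 2 (rank 3553), 197 bp upstream and nearest to F54C4.4. These summits fell just short of the threshold, which lies between them and the 42.9 of mrps-18B.

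At mrpl-15 the summit lay 612 bp upstream, with signal 35.8 in the pooled list (rank 3097), 19.6 in replicate 1 (rank 4212) and 18.9 in replicate 2 (rank 2242). At mrps-16 it lay 266 bp upstream, with signal 35.0 in the pooled list (rank 3197), 22.97 in replicate 1 (rank 3144) and 19.7 in replicate 2 (rank 2071). At mrps-31 it lay 171 bp upstream, with signal 31.4 in the pooled list (rank 3843), 16.6 in replicate 1 (rank 5740) and 8.51 in replicate 2 (rank 8215). None of these 3 was shared with another gene, and mrpl-15 and mrps-16 stood within the strongest 2490 of replicate 2.

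Not all relaxed-only summits were matched in both replicates. Both replicates held an overlapping peak at 25 of the 35 members, replicate 1 alone at 4, replicate 2 alone at 4, and neither at 2, which were mrpl-21 and mrpl-51. These summits were intergenic at 19 members, in an intron at 7, in a coding exon at 5, in a 5′ UTR at 2 and in a 3′ UTR at 2. The windows of other genes held 20 of them, and the member's own start was the nearest in 23. The same counts over all genes with only a relaxed summit were not made, so these show nothing particular to the members.

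No pooled summit lay in the window of 19 members. Of the large subunit these were mrpl-4, mrpl-10, mrpl-13, mrpl-16, mrpl-22, mrpl-24, mrpl-30, mrpl-44, mrpl-46, mrpl-50 and mrpl-54. Of the small subunit they were mrps-2, mrps-5, mrps-11, mrps-12, mrps-18.C, mrps-22, mrps-26 and mrps-30, which include mrps-12, named after a protein of the decoding centre, and the MRPS-5 gene. A peak summit of replicate 1 lay in the window of mrpl-16 and mrpl-50, and one of replicate 2 in that of mrpl-10, mrpl-13 and mrpl-16, which leaves 15 members with no summit in any list. From the starts of all 19 members with no pooled summit, the nearest reproducible summit was 2245 to 55682 bp away, with a median of 6455 bp.

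The arrangement of a gene relative to its neighbours went with these differences. A gene was called divergent where the first (5′-most) start of a protein-coding gene on the opposite strand lay within 1000 bp upstream of its own first start. Of the other genes, it was called close downstream where a protein-coding gene on the same strand ended within 500 bp upstream. Of the members 26 (37.1%) were divergent, against 17.7% of all genes, and 27 (38.6%) were close downstream, against 17.9%. The remaining 17 (24.3%) fell in neither class, against 64.5% of all genes. These include mrps-23 and mrps-35, which have a later, alternative start of an opposite-strand gene (prp-40 and sws-1) within 1000 bp upstream, and would be divergent if any start were counted.

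Summits were counted in each arrangement, and the differences between arrangements were not tested. A relaxed summit lay in the window of 24 of the 26 (92.3%), against 48.3% of all divergent genes, and a reproducible one in that of 9 (34.6%), against 19.7%. Members in neither class had a relaxed summit in 14 of 17 (82.4%), against 36.5% of all such genes, and a reproducible one in 4 (23.5%), against 6.56%. With any opposite-strand start counted, 9 of 28 divergent members (32.1%) had a reproducible summit, against 19.4% of all divergent genes, and 4 of 15 in neither class (26.7%), against 6.52%. The 4 in neither class, mrpl-28, mrpl-36, mrpl-47 and mrpl-55, all belong to the large subunit, as do 11 of the 17 members in that class by first starts.

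Close downstream members were counted first in their own windows. A relaxed summit lay in the window of 13 of 27 (48.1%), against 35.6% of all close downstream genes, and a reproducible one in that of 3 (11.1%), against 5.58%. Of the 19 members with no pooled summit, 14 were close downstream, 2 were divergent and 3 were neither. Leaving the close downstream genes out, 13 of 43 members (30.2%) had a reproducible summit, against 9.39% of all such genes.

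For these genes the window of the first gene of the run was examined as well, a step added after the values above were known. A run was followed upstream along the strand for as long as each gene ended within 500 bp of the next, and the 27 members lay in 26 runs, with a median gap of 106 bp (26 to 461 bp) to the gene before. The first gene had a relaxed summit for 24 of the 27 members (88.9%), against 49.5% of all close downstream genes. It had a reproducible summit for 16 (59.3%), against 16.5%. Runs are inferred from the gaps alone, and no operon annotation was used here.

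For 13 of these 16 members the reproducible summit lay at the first gene and not in the member's own window. Of the 14 close downstream members with no summit of their own, 8 had a reproducible summit and 13 a relaxed one at the first gene. With either window counted, 29 of the 70 members (41.4%) had a reproducible summit, 17 of 41 in the large subunit and 12 of 29 in the small subunit. The share of all protein-coding genes was 11.3%. Only close downstream genes gain the second window, and they make up 38.6% of the members and 17.9% of all genes. The 41.4% and 11.3% thus differ in arrangement as well as in summits.

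The strongest such summit lay 186 bp upstream of rpn-3, a proteasome regulatory subunit gene whose end is 411 bp before mrpl-32. Its signal was 193 in the pooled list (rank 67), and it ranked 75 in replicate 1 and 91 in replicate 2. The summit 230 bp upstream of clsp-1, the Claspin gene before mrpl-54, had a pooled signal of 164 (rank 102) and ranked 159 in replicate 1 and 73 in replicate 2. Both stood above every summit in the members' own windows.

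The gene natc-1, which encodes a subunit of an N-terminal acetyltransferase, starts the run that holds both mrps-2 and mrpl-4. Its summit had a pooled signal of 103 (rank 347) and ranked 581 in replicate 1 and 152 in replicate 2, 63 bp upstream of its start. At atp-2, the gene of the ATP synthase beta subunit, which starts the run of mrps-26, the signal was 69.9 (rank 813), with rank 1356 in replicate 1 and 583 in replicate 2. At eif-3.E, a translation initiation factor gene that starts the run of mrps-30, it was 58.5 (rank 1206), with rank 2243 in replicate 1 and 791 in replicate 2. A respiratory gene and a cytosolic translation gene were thus among the first genes.

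The other first genes with a reproducible summit and their members were vps-37 before mrpl-48 with a pooled signal of 89.2, misc-1, a mitochondrial carrier gene, before mrpl-41 with 82.4, and fars-1, a phenylalanyl-tRNA synthetase gene, before mrpl-23 with 82.4. Lower values were found at W04D2.4 before mrps-11 (69.3), tag-124 before mrpl-53 (68.2), nrde-2 before mrps-14 (67.5), F21D5.7 before mrps-33 (51.1), num-1 before mrps-12 (48.6) and F13G3.7 before mrpl-13 (41.8). F29B9.11 before mrps-21 had the shared summit of 137 given above. Not all of these summits were near the start. They lay 933 bp upstream at nrde-2, 899 bp at fars-1, 807 bp at misc-1 and 730 bp at num-1. At the others here the distance was 8 bp (tag-124) to 453 bp (F21D5.7). Ranks were 5249 in replicate 1 and 1980 in replicate 2 at F13G3.7, 1598 and 2712 at num-1, and 612 and 2993 at tag-124. The nrde-2 summit, at rank 695 in replicate 1, had no overlapping peak in replicate 2. The remaining summits here stood at rank 2266 or stronger in both replicates.

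Runs without a reproducible summit included that of mrps-5, whose first gene sel-1 had a relaxed summit with signal 29.4 (rank 4287). The sel-1 summit ranked 3834 in replicate 1 and had no overlapping peak in replicate 2. The run of mrps-22 starts at rpb-6, a gene of an RNA polymerase subunit, and passes dap-3, whose mammalian counterpart is itself a protein of the mitochondrial small subunit, and its first gene had no summit. The first genes of the runs of mrps-9 (ncr-2) and mrpl-2 (F56B3.9) also had none. A SEM-4 summit near the first gene was thus not found in every run.

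**Figure D3:**
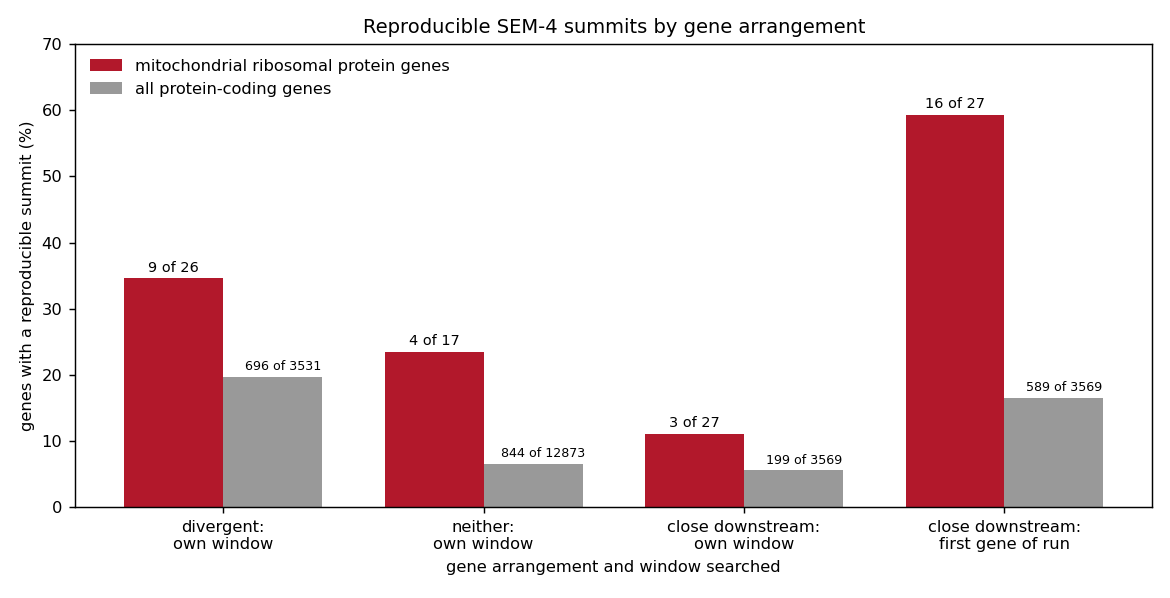
Percent of genes with a reproducible summit, for mitochondrial ribosomal protein genes (red, left) and all protein-coding genes (grey, right), by arrangement and by the window searched, with counts above the bars. For close downstream genes the share is 11.1% for members and 5.58% for all genes in their own window, and 59.3% for members and 16.5% for all genes in the window of the first gene of the run.

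Related gene lists were counted in the same way. Genes of the cytosolic ribosome had a relaxed summit in 72 of 78 (92.3%) and a reproducible one in 54 (69.2%), the strongest at rpl-3 with 739.6, followed by rpl-15 (554), then rpl-20 (522) and finally rpl-35 (407). The share of mitochondrial ribosomal protein genes was 22.9%, and the difference between the lists was not tested. The lists differ in arrangement too, since 38.6% of the mitochondrial and 10.3% of the cytosolic list were close downstream. Without close downstream genes the shares were 30.2% of the mitochondrial and 75.7% of the cytosolic list.

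Nuclear genes of oxidative phosphorylation, whose products assemble with the proteins made by the mitochondrial ribosome, had a relaxed summit in 44 of 53 (83%) and a reproducible one in 23 (43.4%). The strongest was at cox-5A (703), whose product belongs to cytochrome c oxidase. Then came cox-6B (192) of the same complex, atp-1 (190.0) of the ATP synthase, and cox-5B (168), again of the oxidase. In this list 32.1% were close downstream, a share near that of the mitochondrial ribosomal protein genes, and without these genes 47.2% had a reproducible summit.

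Of the genes that act with the mitochondrial ribosome, 18 of 25 listed translation factors and aminoacyl-tRNA synthetases were found in the annotation. A relaxed summit lay at 13 (72.2%) and a reproducible one at 3 (16.7%), which were ears-2 (109), aars-1 (82.4) and gfm-1 (76.1). These shares stood near the 72.9% and 22.9% of the ribosomal protein genes themselves, and 50% of this list were close downstream.

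The protein import list had a relaxed summit in 12 of 16 (75%) and a reproducible one in 4 (25%), at tomm-20 (164), tin-9.1 (72.5), tin-13 (51.6) and timm-23 (51.3). Stress-response and proteostasis genes had a relaxed summit in 12 of 13 (92.3%) and a reproducible one in 3 (23.1%), at hsp-60 (191), atfs-1 (54.3) and dve-1 (46.2). Of 6 genes for mitochondrial DNA maintenance and transcription, 4 had a relaxed and 0 a reproducible summit. All of these lists are small, and the differences between them were not tested.

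**Figure D4:**
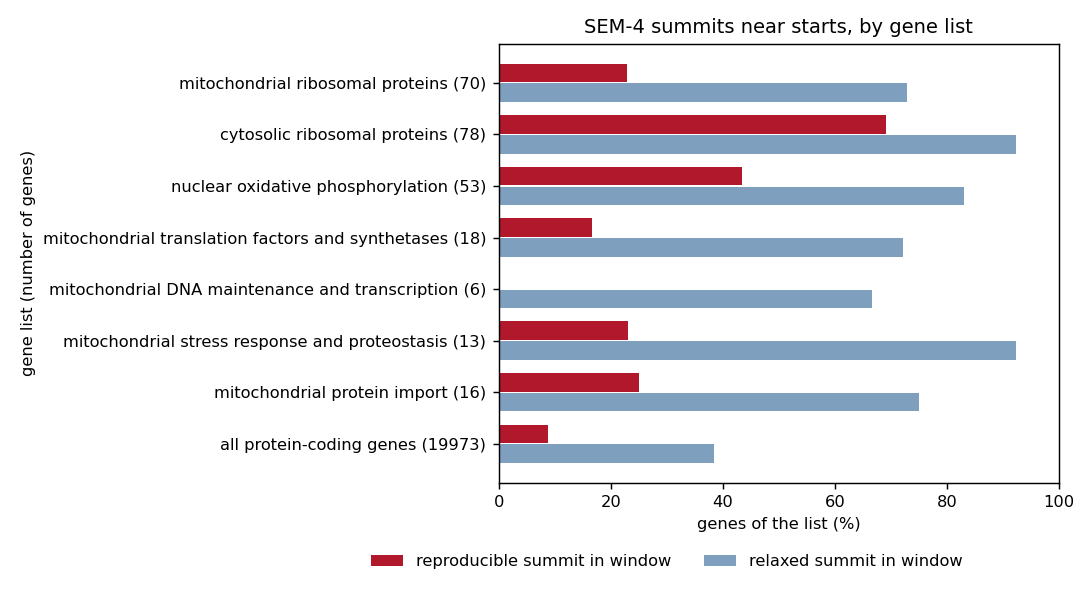
Percent of the genes of each list with a reproducible (red) or relaxed (blue) SEM-4 summit near a start, with list sizes in parentheses and all protein-coding genes last. Mitochondrial ribosomal protein genes stand at 22.9% and 72.9%, cytosolic ribosomal protein genes at 69.2% and 92.3%, and all protein-coding genes at 8.71% and 38.4%.

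Known motifs were counted on both strands in the same windows, the summit with 50 bp on each side. TTGTCT or TTGTGT, forms of a site described for SEM-4, were found at 4 of the 15 distinct reproducible member summits (26.7%), against 18.1% of all 1376 reproducible promoter summits. The 4 were the summits of mrpl-1 with mrps-24, mrpl-49, mrpl-32 and mrpl-37. At the relaxed-only member summits the count was 4 of 35 (11.4%), against 15.2% of all 9841 pooled promoter summits. Here and below, the pooled promoter summits include the 1376 reproducible ones, so they are not a relaxed-only set. Of the sequences shown, those of mrpl-1 and mrpl-32 hold it.

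GAGAGA was found at 1 of 15 reproducible member summits (6.67%), that of mrpl-36, against 27.3% of all reproducible promoter summits. At relaxed-only member summits it was found at 7 of 35 (20%), against 14.7% of all pooled promoter summits. CACGTG was at none of the member summits, against 4.51% of reproducible and 2.4% of pooled promoter summits. TGATAA was at 1 of 15 (6.67%), that of mrps-7, against 3.92%. ATATT, a site of vertebrate SALL4, was at 1 of 15 (6.67%), that of mrpl-1 with mrps-24, against 13.7%. At relaxed-only member summits TGATAA was found at 1 of 35 (2.86%), against 7.96% of pooled promoter summits, and ATATT at 11 (31.4%), against 27.8%.

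The median GC content of these windows was 43.6% at reproducible member summits (34.7% to 60.4%), against 46.5% at all reproducible promoter summits. It was 37.6% at relaxed-only member summits, against 38.6% at all pooled promoter summits.

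A search for 8-letter words held by at least 4 of the 15 reproducible member summits, on either strand, returned 7 words, chosen because of these counts. AAGTGCGC (reverse complement GCGCACTT) was held by 5 summits, those of mrpl-1 with mrps-24, mrpl-28, mrpl-47, mrpl-45 and mrpl-36, and by 5.09% of all reproducible and 1.35% of all pooled promoter summits. The words AGCGCACT, CAAGTGCG, GAGCGCAC and GCAAGTGC overlap it in the same places at all of these but mrpl-28. In the sequences shown they form the longest capital stretch of mrpl-1, mrpl-45 and mrpl-36, with AAGTGCGC on the plus strand for mrpl-36 and on the minus strand for mrpl-1 and mrpl-45. None of these words overlaps a TTGTCT or a GAGAGA there.

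The remaining words overlap each other and are distinct from that group. CCGCAAAC (reverse complement GTTTGCGG) was held by 4 summits, those of mrpl-28, mrpl-55, mrpl-32 and mrpl-45, and by 1.74% of reproducible and 0.752% of pooled promoter summits. GCAAACAC (reverse complement GTGTTTGC) was held by 4, those of mrpl-28, mrps-17, mrpl-32 and mrpl-45, and by 5.74% of reproducible and 1.99% of pooled promoter summits. At least 1 of the 7 words was found at 8 of the 15 member summits (53.3%), a share fixed by the way they were chosen, against 12.7% of all reproducible promoter summits.

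The relaxed-only member summits, which played no part in choosing the words, held at least 1 of them at 3 of 35 (8.57%). The share was 4.17% of all pooled promoter summits, which include the reproducible ones with their 12.7%. All 3 held GCAAACAC and 2 of them CCGCAAAC, and 0 of 35 held AAGTGCGC. A match says that these letters occur in the window, and which factor, if any, reads them was not tested.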

How the data were processed

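SEM-4 ChIP-seq peak lists from 2 replicates of whole L2 larvae were analysed. Per the deposited text file lists, the authors called relaxed peaks for each replicate and for the pooled reads, each with a control, and derived a thresholded list by irreproducible discovery rate. The signal of a peak is column 7 of the deposited lists, as the authors made them, and their −log10 q-value column was left unused. For the aligner, the peak caller and the threshold, names and versions are not given in the sources used here. Neither the ce10 lists nor the control library entered the analysis.

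Summits on ce11 were placed against starts of protein-coding transcripts of Ensembl release 115. A replicate's value is that of the overlapping peak (at least 1 bp) with the nearest summit. Members, gene lists, motifs and comparisons were chosen with earlier results of these data known, though membership went by symbol alone. Named genes are all members with a reproducible summit, the 5 strongest relaxed-only members, members with no summit, genes sharing a reproducible summit and up to 4 genes of each of the 6 lists. First genes of runs were chosen after their values were seen, as were 4 of the sequences. Most shares are set beside one over all 19973 genes, the genes of the same class or all promoter summits. With 1 group, no test was made.

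Alternatives varied the window, the start, the assignment, the list and the overlap rule, and left out each replicate. The window search was checked on simulated data for genes with a single transcript start, and the search over several starts was not checked. Python 3.11.15, numpy 2.4.6, pandas 2.3.3, scipy 1.17.1 and matplotlib 3.10.9 were used.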

Additional observations from a re-analysis of the deposited data

How the results depend on the processing

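The count of members with a reproducible summit was 16, against 8.71% of all genes. With a window of 500 bp upstream to 100 bp downstream it was 13, against 6.77%. With 2000 bp upstream to 500 bp downstream it was 18, against 11.5%, and with any base of the peak 17, against 9.32%. It was 11, against 6.51%, when each summit was given to its nearest start only. The last setting took the summits of 5 members, among them the strongest, at mrps-21. With the higher-signal part of the reproducible list (the upper 50%) the count was 11, and the share of all genes was 4.92%, against 8.71%. Nearest-start assignment lowered the total over the 6 comparison lists to 56, against 87, of which the cytosolic ribosomal list fell to 31, against 54. Without 1 replicate, on the strongest 2490 peaks of the other, the members numbered 15 to 16, all genes 8.39% to 8.46% and the comparison lists 83 to 86. The first-gene count and its comparisons were chosen after the data were seen. Counting the first gene of a run as well gave 29 members (41.4%), against 11.3% of all genes. Among the 27 close downstream members the count of 16 was 12 (44.4%) with the window of 500 bp upstream to 100 bp downstream, against 13% of all such genes. With the stronger list it was 13, against 10%. It was 13 without replicate 1, against 15.9%, and 16 without replicate 2, against 15.4%. With gaps of up to 200 bp it was 12 of 20 members (60%), against 21.9%, and with gaps of up to 1000 bp 16 of 32 (50%), against 13.6%. Counting any start of opposite-strand genes, also added later, left the count at 16 and moved 2 members between arrangements. The relaxed count of 51 ran from 38 (nearest start) to 57 (widest window), and the share of all genes was not computed for these settings. Depth is unknown, so a missing summit shows only that none was called. No paired analysis was possible because the study holds 1 group.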

Other observations

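A pair of the strongest member summits shares a stretch of sequence beyond the 8-letter words. The windows shown above of mrpl-1 with mrps-24 and of mrps-17 both hold tgtgcattctgacgtga, 17 bases that occur 10 times on the 6 chromosomes, and the stretch lies in 2 reproducible and 3 pooled promoter summit windows. This stretch was noticed after the sequences were seen, and what it means was not tested.

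Outside the 16 members with a reproducible summit, single replicates placed a few members among their strongest 2490 peaks. Replicate 1 did so for mrpl-18 at rank 2003 and for mrpl-50 at rank 1992, and replicate 2 for mrps-16 at rank 2071 and mrpl-15 at rank 2242. In the pooled list they ranked 2770 (mrpl-18), 3197 (mrps-16) and 3097 (mrpl-15), while mrpl-50 had no pooled summit in its window.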
